A study of Mus musculus with 16 samples.

Results

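The genes followed here encode 10 amino acid transporters or transporter subunits, picked by gene symbol from the 18138 genes on the array. They are the cationic amino acid transporters Slc7a1 and Slc7a3, the heavy chain Slc3a2 (CD98) with its light chain partners Slc7a5, Slc7a6 and Slc7a11, the neutral amino acid exchangers Slc1a4 and Slc1a5, and the sodium-coupled neutral amino acid transporters Slc38a1 and Slc38a2. Slc7a5 was not analysed here, so 9 genes had values, and 6 of them were bright enough on at least 2 arrays to be tested. The other 3, Slc7a1, Slc7a3 and Slc7a11, were not above background on any of the 16 arrays.

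Gene expression was measured in D10 cells, a mouse Th2 helper T cell line grown with recombinant IL-2 in a medium to which L-glutamine and nonessential amino acids had been added, which all groups share. In 4 groups the cells had received no inhibitor (control) and in 4 they had been exposed beforehand, for 1 h, to 10 µM Akti1/2, an allosteric inhibitor of the kinases Akt1 and Akt2. Each arm was sampled at 0, 2, 6 and 12 h of stimulation through CD3 and CD28 with biotinylated antibodies and streptavidin. Each group had 2 arrays, and the sources used here do not say whether these came from separate cultures, so the p-values measure only the spread between the arrays, which may be technical. The protocol calls the control cells untreated, whereas elsewhere in the study a solvent is named. The 16 arrays were split over 2 chips, with 1 array of every group on both.

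Amino acid transporters carry the building blocks of protein across the plasma membrane, and T cells raise their uptake when the antigen receptor is engaged. CD98 is not itself a channel for amino acids but brings its light chains to the cell surface, among them the exchanger of large neutral amino acids, the exchanger of cationic against neutral amino acids encoded by Slc7a6, and the cystine and glutamate exchanger encoded by Slc7a11. Slc1a4 and Slc1a5 exchange alanine, serine, cysteine and, for Slc1a5, glutamine, while Slc38a1 and Slc38a2 bring glutamine, alanine and other small neutral amino acids in with sodium. Several of these genes are known targets of the amino acid response, in which the transcription factor ATF4 acts together with C/EBP proteins at a composite DNA element. Akt is a kinase downstream of phosphoinositide 3-kinase and upstream of the growth regulator mTORC1, which responds to amino acids.

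The start of the transcripts is shown for the 3 genes whose response differed most between the arms, Slc1a4, Slc38a2 and Slc3a2, and for Slc7a11, the other gene with a match to the composite element. Each window runs 5′ to 3′ from 250 bases before to 50 bases after the annotated start, from RefSeq on GRCm38.p6, and all 4 lie on the minus strand: Slc1a4 at chr11:20332664-20332963, Slc7a11 at chr3:50443564-50443863, Slc38a2 at chr15:96699679-96699978 and Slc3a2 at chr19:8713848-8714147. Capitals mark every match, on either strand, to TGATGNAA, used here as the core of the C/EBP-ATF element, where N is any base.
Slc1a4: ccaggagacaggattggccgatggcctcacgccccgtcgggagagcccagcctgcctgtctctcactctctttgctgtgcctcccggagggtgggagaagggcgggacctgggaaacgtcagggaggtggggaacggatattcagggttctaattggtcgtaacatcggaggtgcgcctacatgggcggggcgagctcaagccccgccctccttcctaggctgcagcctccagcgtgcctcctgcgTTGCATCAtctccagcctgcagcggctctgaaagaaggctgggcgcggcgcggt
Slc7a11: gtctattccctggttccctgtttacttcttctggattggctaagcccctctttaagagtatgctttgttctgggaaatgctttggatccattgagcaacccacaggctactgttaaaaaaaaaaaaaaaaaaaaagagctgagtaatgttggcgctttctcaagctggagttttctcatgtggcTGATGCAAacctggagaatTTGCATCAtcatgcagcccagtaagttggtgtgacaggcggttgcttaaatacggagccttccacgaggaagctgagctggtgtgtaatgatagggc
Slc38a2: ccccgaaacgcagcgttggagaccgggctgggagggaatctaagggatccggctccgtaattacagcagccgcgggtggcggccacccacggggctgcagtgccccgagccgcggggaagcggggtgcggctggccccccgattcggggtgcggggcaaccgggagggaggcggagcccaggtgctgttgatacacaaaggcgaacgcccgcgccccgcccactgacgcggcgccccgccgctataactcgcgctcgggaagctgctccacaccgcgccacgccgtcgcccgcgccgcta
Slc3a2: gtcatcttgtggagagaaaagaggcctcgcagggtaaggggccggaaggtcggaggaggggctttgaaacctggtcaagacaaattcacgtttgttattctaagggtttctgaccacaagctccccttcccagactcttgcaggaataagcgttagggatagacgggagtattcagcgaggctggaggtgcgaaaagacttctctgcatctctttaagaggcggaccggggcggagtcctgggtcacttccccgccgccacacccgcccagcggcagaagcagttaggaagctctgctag

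The Slc1a4 window held 1 match, TTGCATCA on the reverse strand with its first base at position -4 from the start. The Slc7a11 window held a match on each strand, TGATGCAA at -66 and TTGCATCA at -47. No match lay in the windows of Slc38a2, Slc3a2, Slc7a1 or Slc7a6, which says only that these letters are not in these 300 bases. Of 32851 mouse promoter windows of this length, 3.97% held the core. A window was given for 6 of the 10 genes, and of these only Slc7a1 and Slc7a6 had more than 1. A match is a description of the sequence, and no binding was measured. The 5 other motifs searched on both strands turned up little in these windows. The FOXO site GTAAACA, present in 3.65% of all windows, matched once in Slc7a11 at -232, and the AP-1 site TGANTCA, present in 7.81%, matched once in Slc7a1 at -123. The CCAAT box, present in 37.4%, matched 2 times in Slc1a4 and 1 time each in Slc7a1 and Slc7a11, whereas the cAMP response element TGACGTCA (1.79%) and the E-box CACGTG (7.15%) matched in none of the 6 genes.

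The arrays report 1 bead intensity per gene on a linear scale, without background subtraction, so that a silent gene reads near the 798 negative control beads. An array counted as detecting a gene, or having it above background, at a detection p under 0.01, the detection p being the share of negative controls at least as bright. This held for 6288 to 6907 genes per array, and the mean intensity over all genes was 393.8 to 544 per array. The T cell and Th2 markers fitted the label, with 8 of 9 above background on all 16 arrays and Cd4 on 13, whereas all 4 CD8 and NK cell markers and all 8 macrophage, monocyte and dendritic cell markers were at background throughout. Of the 3 B cell markers with values, Ms4a1 was above background on 1 array and the others on none. The summed intensity of the T cell markers was 25870 to 43550 in control and 25100 to 36550 in Akti1/2-treated cells. In bulk RNA of this kind, fewer cells expressing a gene and less RNA per cell cannot be told apart.

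Measured against background, the 9 genes fell into those that stood clear of it on every array, those that crossed it and those that never left it. Slc38a2 was 4.34 to 12.6 times the 99th percentile of the negative controls of its array and Slc7a6 was 1.16 to 1.9 times that percentile, and both were above background on all 16 arrays. Slc1a4 spanned 0.864 to 2.9 times the percentile and was above background on 9 arrays, Slc3a2 spanned 0.883 to 1.49 and was above on 8, and Slc1a5 spanned 0.984 to 1.28 and was above on 13. Slc38a1 crossed the percentile on 3 arrays, with a range of 0.885 to 1.04. Bead intensities of different genes depend on their probes, so these ratios place each gene against background and not against another gene.

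**Figure D1:**
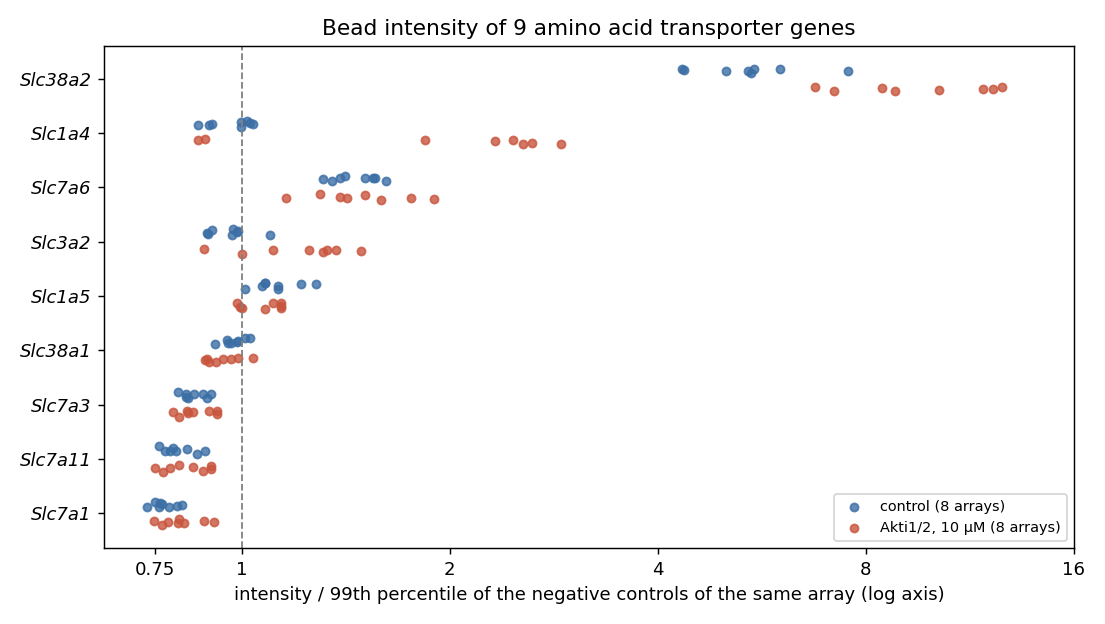
Bead intensity of the 9 transporter genes with values, divided by the 99th percentile of the negative controls of the same array (log axis, 1 point per array, 8 control and 8 Akti1/2 arrays per gene, vertical jitter only to separate points; the dashed line is a ratio of 1). Slc7a1, Slc7a3 and Slc7a11 lie below 1 on every array, and the stimulated Akti1/2 arrays of Slc1a4, Slc38a2 and Slc3a2 lie above all control arrays of the same gene.

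Slc7a1 and Slc7a3 carry arginine, lysine and ornithine into cells. The Slc7a1 intensity was 108.8 to 147.6 over the 16 arrays and that of Slc7a3 was 114.5 to 157.5, with no array above background. Slc7a11 exports glutamate in exchange for cystine, which cells use for glutathione, and its intensity was 106.3 to 153.9. None of these genes has a level that can be compared between groups, only an upper bound. When all genes were fitted without the filter on dim genes, none of the 3 was called in any of the 17 comparisons by limma with Benjamini-Hochberg adjustment, and the value nearest to a call was the difference in response of Slc7a11 at 12 h, a log2 of 0.67 with an adjusted p of 0.0995. The cystine exchanger was thus not detectable in either arm, although its promoter window carries 2 matches to the composite core.

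For the 6 genes tested, limma's neqc was used to correct intensities on the negative controls, to quantile-normalize them and to take log2, and all 8 groups entered 1 fit. Calls required an adjusted p under 0.05 (Benjamini-Hochberg) over the 7395 genes tested in the same comparison. For each time, the difference in response, or interaction, subtracts the control arm's change from 0 h from that of the Akti1/2 arm. No unstimulated cells were sampled after 0 h in either arm. A changed response to CD3/CD28 and the longer time since the inhibitor was added therefore cannot be told apart in it. Log2 differences are given with the standard error of the fit, and n is 2 arrays per group throughout. Where neither array of a group detected a gene, its level there is only an upper bound. The fold against such a group is then given as a lower bound, taken against the lowest normalized signal above background.

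Slc1a4, the exchanger of alanine, serine and cysteine also known as ASCT1, differed most between the arms. In control cells its intensity was 150.4 and 144.7 on the 2 arrays at 0 h, 150.1 and 171.2 at 2 h, 179.8 and 167.2 at 6 h, then 173.3 and 172.1 at 12 h. In Akti1/2-treated cells it was 143.6 and 134.5 at 0 h, 313.4 and 277 at 2 h, 346.7 and 493.5 at 6 h, then 440 and 401.6 at 12 h. All 6 stimulated Akti1/2 arrays were thus brighter than all 10 other arrays, and both 0 h groups were at background. Under Akti1/2, Slc1a4 rose by 2 h and stayed up: the log2 difference from 0 h was 2.94, 3.25 and 3.20 at 2, 6 and 12 h (SE 0.19 each), which is at least 4.72-, 5.86- and 5.66-fold higher. In control cells the log2 difference from 0 h was 0.36, 0.79 and 0.68 at 2, 6 and 12 h (limma adjusted p = 0.246, 0.00816 and 0.016), at least 1.12- and 1.04-fold higher at the later times. The exchanger was therefore called higher than at 0 h in both arms at 6 and 12 h, and at 2 h in the Akti1/2 arm only.

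The difference in response of Slc1a4 was tested directly. It was a log2 of 2.58, 2.47 and 2.52 at 2, 6 and 12 h (SE 0.26 each, limma adjusted p = 0.000374, 0.000116 and 3.65e-05). Between the arms at the same time, Akti1/2-treated cells were higher by 2.51, 2.40 and 2.45 at 2, 6 and 12 h (limma adjusted p = 5.94e-06, 2.42e-06 and 8.53e-07), and at 2 h, where the control arrays were at background, at least 4.63-fold higher. Before stimulation the arms differed by -0.07 (adjusted p = 0.992). The offset between the arms was thus nearly the same at 2, 6 and 12 h and was not seen at 0 h. Within chip 1 the differences between the arms were 2.88, 2.22 and 2.46, and within chip 2 they were 2.15, 2.59 and 2.44. Without background correction, which pulls dim values together, the difference in response shrank to 1.20, 1.29 and 1.28 and was still called at each time, while the rises of the control cells at 6 h (0.23) and 12 h (0.20) were no longer called. The 6 h call in control cells was also lost without control 0 h replicate 1, and the 12 h call without that array or without control 12 h replicate 1.

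**Figure D2:**
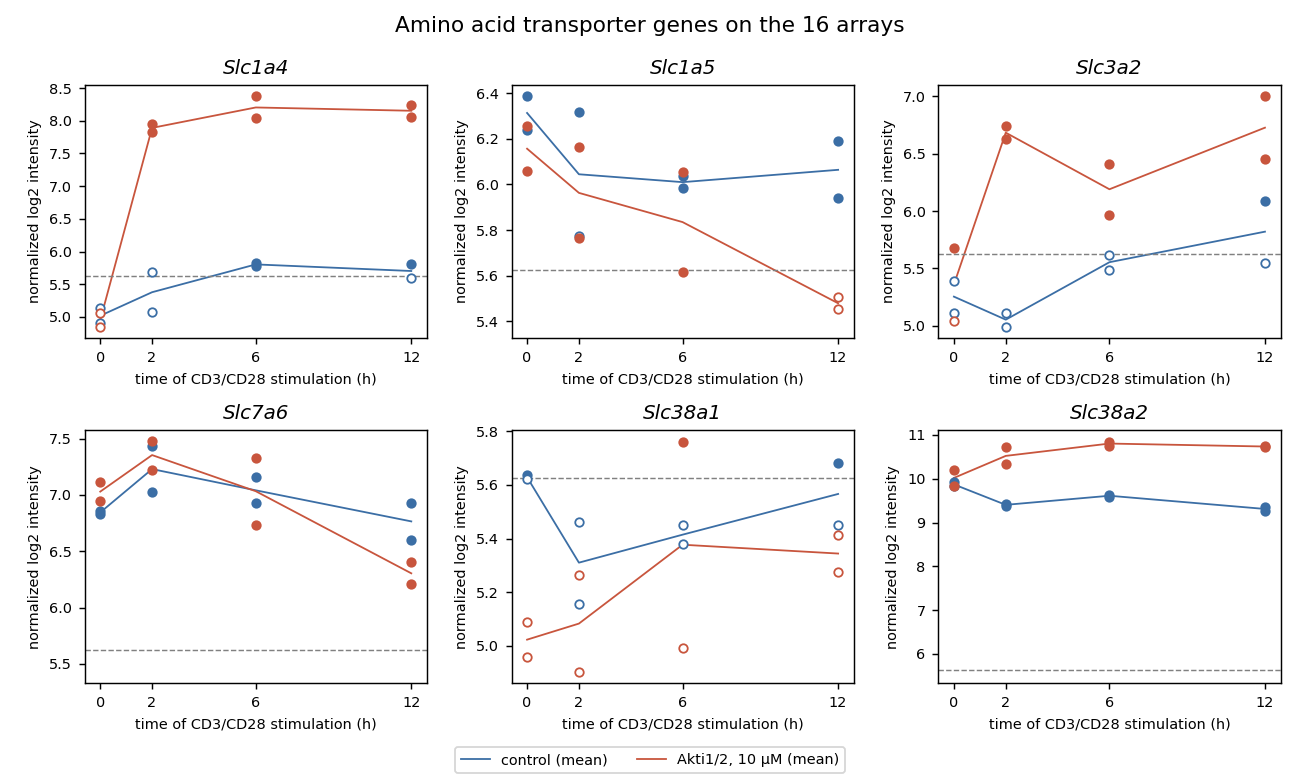
Normalized log2 intensity of the 6 tested transporter genes by hours of CD3/CD28 stimulation (2 arrays per group as points, lines through the group means; filled points are above background on that array, and the dashed line is the mean over arrays of the lowest normalized signal above background). The y axes differ between panels; Slc1a4 and Slc38a2 separate by arm at 2, 6 and 12 h, Slc3a2 most at 2 h, and Slc7a6 and Slc1a5 reach their lowest means in Akti1/2-treated cells at 12 h.

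Slc38a2, the sodium-coupled transporter of glutamine, alanine and other small neutral amino acids known as SNAT2, went opposite ways in the arms. Its intensity in control cells was 1312 and 970.2 at 0 h, 894.8 and 744.4 at 2 h, 952.1 and 892.8 at 6 h, then 731.7 and 864.7 at 12 h. In Akti1/2-treated cells it was 1097.4 and 1116.7 at 0 h, 1187.5 and 1270 at 2 h, 1651.7 and 2142.5 at 6 h, then 2039.7 and 1603.6 at 12 h. After normalization, the 6 stimulated control arrays were the lowest of the 16 and the 6 stimulated Akti1/2 arrays the highest, with all 4 arrays of 0 h between them. Control cells had log2 differences from 0 h of -0.47, -0.26 and -0.56 at 2, 6 and 12 h (limma adjusted p = 0.0547, 0.204 and 0.0101), of which the last was called. Akti1/2-treated cells rose by 0.50, 0.78 and 0.72 (limma adjusted p = 0.0144, 0.00109 and 0.00132; SE 0.14 for each of these changes). The gene was thus below its resting level in stimulated control cells at 12 h and above it in Akti1/2-treated cells at all 3 times.

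Tested against each other, the responses of Slc38a2 differed by 0.97, 1.04 and 1.28 at 2, 6 and 12 h (SE 0.20 each, limma adjusted p = 0.014, 0.00354 and 0.000488). Between the arms, Akti1/2-treated cells were 2.17-fold higher at 2 h, 2.28-fold at 6 h and 2.69-fold at 12 h (limma adjusted p = 0.00022, 4.93e-05 and 5.68e-06), against a log2 difference of 0.15 at 0 h (adjusted p = 0.992). Both chips gave the same sign at the 3 stimulated times, with 0.91, 1.17 and 1.40 within chip 1 and 1.33, 1.21 and 1.45 within chip 2. The difference in response at 2 h was not called without replicate 1 of either 0 h group, with an adjusted p of up to 0.0581, whereas the difference between the arms at 2 h was called in every alternative run. The fall in control cells at 12 h was not called without control 0 h replicate 1 or without control 12 h replicate 1, with an adjusted p of up to 0.0716. The rise under Akti1/2 at 2 h was lost without replicate 1 at 0 h, without replicate 2 at 2 h and in a fit of only the groups compared, with an adjusted p of up to 0.144. At 2 h, the control change was called in 8 alternatives, and the log2 value lay between -0.54 and -0.41 in all of them.

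Slc3a2, the heavy chain that carries several of these light chains to the membrane, was close to background in control cells. Its control intensities were 168.9 and 144.2 at 0 h, 147.5 and 155.6 at 2 h, 168.2 and 161.9 at 6 h, then 185.1 and 170 at 12 h, and only 1 of these 8 arrays, at 12 h, was above background. The Akti1/2-treated cells gave 143.3 and 156.1 at 0 h, 184.5 and 196.5 at 2 h, 155.9 and 213.1 at 6 h, then 222.2 and 234.6 at 12 h. All 6 stimulated Akti1/2 arrays were above background, and the 2 arrays of 6 h spread most widely in intensity. Slc3a2 rose under Akti1/2 at 2 h by a log2 of 1.32, at 6 h by 0.83 and at 12 h by 1.37 (SE 0.25; limma adjusted p = 0.00156, 0.021 and 0.00073). In control cells no change from 0 h was called, with values of -0.20, 0.30 and 0.57 and adjusted p-values of 0.646, 0.415 and 0.109, the last of which was called with the chip as a block (adjusted p = 0.0495).

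The arms differed in Slc3a2 by 1.63 at 2 h (limma adjusted p = 0.000706, at least 2.00-fold higher with Akti1/2) and by 0.91 at 12 h (adjusted p = 0.00884). At 6 h the difference was 0.64 (adjusted p = 0.06, or 0.0234 with the chip as a block). For the response, the difference was called at 2 h, at 1.53 (SE 0.35, limma adjusted p = 0.0219), and not at the later times, 6 h (0.53, adjusted p = 0.313) and 12 h (0.80, adjusted p = 0.0991, or 0.0441 with the chip as a block). The chips agreed closely on the difference between the arms at 2 h (1.64 and 1.63) but less so on the difference in response (1.99 and 1.06), since their 0 h values lay on opposite sides of 0 (-0.35 and 0.56). The call at 2 h rested on few arrays: it was lost without control 0 h replicate 1, control 2 h replicate 1, Akti1/2 0 h replicate 1 or Akti1/2 2 h replicate 2, with an adjusted p of up to 0.0848. The difference between the arms at 12 h was lost without control 12 h replicate 2 or Akti1/2 12 h replicate 2, with an adjusted p of up to 0.0982. The rise at 6 h under Akti1/2 was lost without replicate 1 at 0 h, without replicate 2 at 6 h and in a fit of only the groups compared, with an adjusted p of up to 0.198. Without background correction the 2 h difference in response was 0.54, and still called.

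Slc7a6, the light chain that exchanges cationic for neutral amino acids, did not follow its heavy chain. Control intensities were 262.4 and 218.1 at 0 h, 256.6 and 278.3 at 2 h, 270.3 and 228.3 at 6 h, then 235.9 and 226.1 at 12 h, and no control change from 0 h was called. With Akti1/2 they were 257.9 and 216.8 at 0 h, 256.4 and 227.2 at 2 h, 198.5 and 299.9 at 6 h, then 217.9 and 183.4 at 12 h. After normalization, both Akti1/2 arrays of 12 h lay below all other arrays. The gene fell under Akti1/2 by 0.73 on the log2 scale from 0 to 12 h (SE 0.20, limma adjusted p = 0.0109) and by 0.73 from 6 to 12 h (adjusted p = 0.0265). Against control cells at 12 h the difference was -0.46 (adjusted p = 0.0761) and the difference in response was -0.65 (adjusted p = 0.102), neither of them called. Both were called in a fit of only the groups compared, the difference in response with an adjusted p of 0.0312, and the difference between the arms was also called without either Akti1/2 array of 6 h. The fall from 0 h was lost without Akti1/2 0 h replicate 1 or Akti1/2 12 h replicate 2 (adjusted p of up to 0.0742). That from 6 h was lost in 5 alternatives: without the filter on dim genes, in a fit of only the groups compared, and without Akti1/2 6 h replicate 2 or either Akti1/2 array of 12 h (adjusted p of up to 0.208). Without background correction the gene fell by 0.34 from 0 h and fell by 0.35 from 6 h, both still called.

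Slc1a5, the glutamine exchanger known as ASCT2, was also lower late under Akti1/2. In control cells its intensity was 222.2 and 183.1 at 0 h, 201.6 and 173.8 at 2 h, 186.4 and 176.1 at 6 h, then 189.8 and 186.9 at 12 h. In Akti1/2-treated cells it was 180.1 and 177.1 at 0 h, 145.6 and 171.9 at 2 h, 159.8 and 170.5 at 6 h, then 166.6 and 155 at 12 h. The 12 h Akti1/2 arrays were the only group in which neither array was above background, and after normalization they lay below all others. From 0 to 12 h the gene fell by 0.68 on the log2 scale under Akti1/2 (SE 0.20, limma adjusted p = 0.0146, at least 1.48-fold lower), and at 12 h it was -0.58 against control cells (adjusted p = 0.0274, at least 1.38-fold lower). In control cells the change to 12 h was -0.25 (adjusted p = 0.387), and the difference in response was -0.43 (adjusted p = 0.268). The difference between the arms at 12 h was -0.49 within chip 1 and -0.68 within chip 2. Its call was lost without background correction (-0.19), without the filter on dim genes, and without control 12 h replicate 1 or either Akti1/2 array of 12 h, with an adjusted p of up to 0.165. The fall from 0 h was lost without Akti1/2 0 h replicate 2 or either Akti1/2 array of 12 h, with an adjusted p of up to 0.0964.

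Slc38a1, the other sodium-coupled glutamine transporter, known as SNAT1, had no call in any of the 17 comparisons. Its intensity was 178.7 and 159.1 at 0 h, 163.4 and 156.9 at 2 h, 164.9 and 156.9 at 6 h, then 169.4 and 166.4 at 12 h in control cells. In Akti1/2-treated cells it was 144.7 and 137.6, 130.3 and 138.1, 125.7 and 176.7, and 165.2 and 148.1 at the same times. It was above background on 3 arrays only, 1 each in control cells at 0 h and 12 h and in Akti1/2-treated cells at 6 h. The arms differed by -0.61 before stimulation (SE 0.21, limma adjusted p = 0.829), the lowest of the 6 genes at that time. The 2 Akti1/2 arrays of 6 h lay far apart, and without replicate 1 the difference in response at 6 h became 0.95 (limma adjusted p = 0.0156) against 0.57 (adjusted p = 0.203) with it.

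Read across the genes, 0 of the 6 tested were called in control cells at 2 h against 0 h, where 10.3% of all genes were called, and 1 (Slc38a2) had an unadjusted limma p under 0.05. At 6 h, 1 gene (Slc1a4) was called higher, beside 12.1% of all genes called higher and 27.5% called in either direction. At 12 h, Slc1a4 was called higher and Slc38a2 lower, beside 12.7% of all genes called higher, 15.1% lower and 27.8% in all. Between 2 and 6 h none of the 6 was called (14.6% of all genes), with 1 unadjusted limma p under 0.05, and between 6 and 12 h none was called (13.6%), with 0. The median log2 change of the 6 genes from 0 h was -0.23, -0.01 and -0.07 at 2, 6 and 12 h, beside -0.02, -0.02 and -0.01 over all genes tested.

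Under Akti1/2, Slc1a4, Slc38a2 and Slc3a2 rose together from 2 h onwards. These 3 were called higher than at 0 h at 2 h, with none lower, where 17.8% of all genes were called higher and 38.6% in either direction. They were the same 3 at 6 h, where 15.4% of all genes were called higher and 33.3% in all. At 12 h the 3 were again higher and Slc7a6 and Slc1a5 lower, beside 21.1% of all genes higher, 23.4% lower and 44.5% in all. The median change was 0.41, 0.57 and 0.52, beside -0.03, -0.02 and -0.03 over all genes. From 2 to 6 h none of the 6 was called (30.2% of all genes), with 0 at an unadjusted limma p under 0.05, and from 6 to 12 h only the fall of Slc7a6 was called (8.84% of all genes lower, 17.8% in all). The 6 genes are few, and they passed the filter partly through the group in which they were bright, so these counts describe them and support nothing about transporters in general.

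Set side by side at each time, the arms had no called difference in 0 h cells for any of the 6 genes, where 0.0541% of all genes were called and Slc38a1 alone had an unadjusted limma p under 0.05. At 2 h Slc1a4, Slc38a2 and Slc3a2 were higher with Akti1/2 (13.6% of all genes called higher, 28.4% in either direction). At 6 h Slc1a4 and Slc38a2 were higher (18.8% of all genes higher, 37.5% in all), and at 12 h Slc1a4, Slc38a2 and Slc3a2 were higher and Slc1a5 lower (24.2% of all genes higher, 24.8% lower, 49% in all). A higher response with Akti1/2 was called for 3, 2 and 2 genes at 2, 6 and 12 h, and a lower one for none. Over all genes, 8.41%, 19.5% and 32.5% were called at these times, and 4.25%, 10.3% and 16.3% were called higher. Its median over the 6 genes was 0.67, 0.55 and 0.59 at 2, 6 and 12 h, beside -0.01, -0.01 and -0.02 over all genes. These comparisons share the 0 h arrays, and those with control cells share the control arrays. Scaling the arrays to the same mean in place of quantile normalization moved the all-gene median of the difference in response at 6 h from -0.01 to 0.12 and the share of its calls that were higher from 52.7% to 71.9%. All of the differences in response called for Slc1a4, Slc38a2 and Slc3a2 kept their direction and their call under that scaling.

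**Figure D3:**
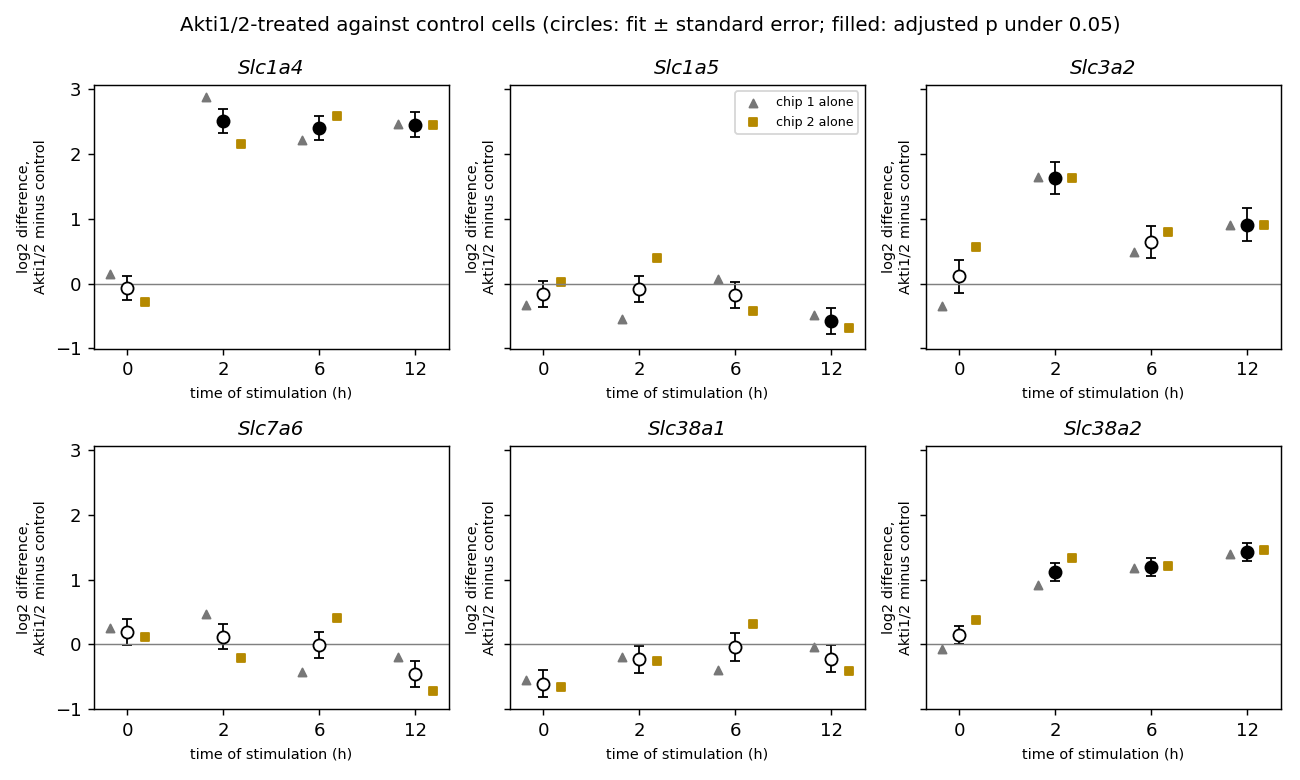
Log2 difference between Akti1/2-treated and control cells for the 6 tested genes at 0, 2, 6 and 12 h (circles with bars: fit ± SE, 2 arrays per group; filled circles: adjusted p under 0.05 by limma with Benjamini-Hochberg adjustment; triangles and squares: the value within chip 1 and within chip 2). Slc1a4 stands at 2.40 to 2.51 and Slc38a2 at 1.12 to 1.43 at the 3 stimulated times, while no circle is filled at 0 h.

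The order of the group means shows where neighbouring groups could be separated. For Slc1a4 a gap of 2.09 on the log2 scale separated the 3 stimulated Akti1/2 groups from the 4 control groups and the Akti1/2 group of 0 h, which was the lowest of all, with no overlap of arrays across the gap. Below that gap the arrays of neighbouring groups overlapped at every step. For Slc38a2 the means ran from 9.31 in control cells at 12 h to 10.80 in Akti1/2-treated cells at 6 h, and the only neighbours whose arrays overlapped were the 2 groups of 0 h, at 9.87 and 10.02. For Slc3a2 the 2 h and 12 h Akti1/2 groups, at 6.68 and 6.73, overlapped each other and stood apart from the rest. For Slc1a5, Slc7a6 and Slc38a1 most neighbours overlapped.

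Across the 16 arrays, the genes that rose under Akti1/2 varied alike. Pearson's r of the normalized log2 values was 0.87 between Slc3a2 and Slc1a4, 0.82 between Slc1a4 and Slc38a2 and 0.74 between Slc3a2 and Slc38a2. Slc1a5 ran the other way, at -0.72 with Slc1a4 and -0.58 with Slc3a2, and Slc7a6 showed little relation to its heavy chain Slc3a2, at -0.21. These values describe arrays that share groups, chips and normalization, and carry no p. Among all tested genes, the 3 most like Slc1a4 were Herpud1 (0.985), which encodes a factor of protein degradation at the endoplasmic reticulum, D6Wsu163e (0.975) and the mitochondrial ribosomal protein gene Mrpl9 (0.968). Mrpl9 (0.911) was also among the 3 most like Slc3a2, with Rhbdd1 (0.918) and the histone demethylase gene Jmjd2a (0.901). The nearest to Slc38a2 were Cept1 (0.957), of phospholipid synthesis, 2610021K21Rik (0.956) and D2Ertd391e (0.948). For Slc7a6 and Slc1a5 the nearest genes reached 0.906 (Pigx) and 0.860 (Acy1).

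A list of 25 amino acid response and synthesis genes, holding ATF4 with its known targets and enzymes of serine, asparagine and proline synthesis, was counted beside the transporters. The list was chosen with earlier results of these data known, so the counts describe its genes and are no independent test. Of its 18 tested genes, 13, 16 and 18 had a higher response with Akti1/2 at 2, 6 and 12 h and none a lower one, where 4.25%, 10.3% and 16.3% of all genes were called higher, with a median difference in response of 0.95, 1.26 and 1.61. The 8 largest at 12 h were Trib3 (3.94), an inhibitory pseudokinase, Ddit3 (2.57), which encodes CHOP, Gpt2 (2.44), the mitochondrial alanine aminotransferase, Atf5 (2.35), Nupr1 (2.26), Cebpb (2.04), Chac1 (1.90), which degrades glutathione, and Atf3 (1.81), all called by limma with Benjamini-Hochberg adjustment. Ddit3 and Chac1 were already higher with Akti1/2 at 0 h, by 1.07 and 1.45 on the log2 scale (limma adjusted p = 0.000665 and 0.00509), and were 2 of the 4 genes called in that comparison. Nupr1 and Atf3 were at background in both arms at 0 h. Atf3 was above background on all stimulated Akti1/2 arrays and on 1 control array, at 2 h, so it passed the filter only through the Akti1/2 arm. The intensity of Trib3 was 196.7 to 241.7 on the 8 control arrays and rose from 231 and 216.2 at 0 h to 2620.2 and 2122.4 at 12 h with Akti1/2. In promoter windows of the same length, the composite core was found in 8 of the 23 genes of this list that had a window, Atf3, Chac1, Trib3, Nupr1, Vldlr, Asns, Pycr1 and Got1, and in 2 of the 6 transporter genes, Slc1a4 and Slc7a11. Of all promoter windows, 3.97% held the core, a share per window, whereas a gene counted here if any of its windows did. Known ATF4 targets were put on this list, so its count is not independent of how the list was made. Vldlr and Pycr1 were above background on no array and Got1 had no values, so their response is not known. Of the 8 largest responses, Ddit3, Gpt2, Atf5 and Cebpb were not among the genes with the core, whereas Trib3, Nupr1, Chac1 and Atf3 were. A list of 15 genes of amino acid use, for glutamine, arginine and glutathione, had 1 call among 7 tested at 12 h (32.5% of all genes), the ornithine decarboxylase gene Odc1, lower by a difference in response of -0.97 (limma adjusted p = 0.0018), and its median was -0.11. None of its 10 genes with a window held the core, and of 33 other amino acid transporter genes with a window Slc7a7 alone held it.

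**Figure D4:**
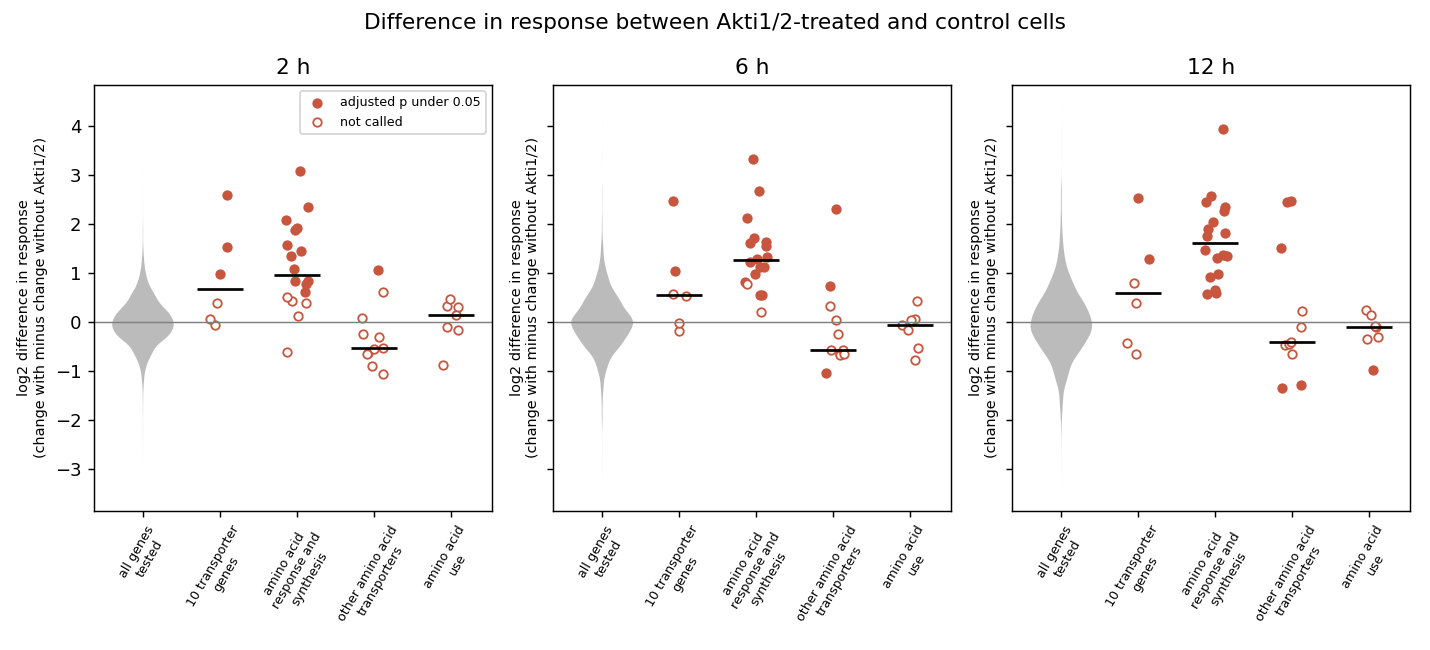
Log2 difference in response (Akti1/2 arm minus control arm) at 2, 6 and 12 h for all 7395 genes tested (grey density) and for the tested genes of 4 lists (points, black bar at the median; filled: adjusted p under 0.05 by limma with Benjamini-Hochberg adjustment). All 18 tested response and synthesis genes are filled and above 0 at 12 h, the 6 transporter genes spread from -0.65 to 2.52, and the other transporters spread to both sides of 0.

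Of 44 other amino acid transporter genes, 38 had values and 11 were tested. At 12 h, 3 of the 11 had a higher and 2 a lower response with Akti1/2, beside 16.3% of all genes called higher, 16.2% lower and 32.5% in either direction, and their median difference in response was -0.40 against -0.02 over all genes. Those higher were Slc6a19, a sodium-coupled neutral amino acid transporter, at 2.46 (SE 0.21, limma adjusted p = 9.52e-06), the glycine transporter Slc6a9 at 2.44 (SE 0.21, adjusted p = 9.41e-06) and the proton-coupled lysosomal transporter Slc36a1 (adjusted p = 0.00951). Slc36a1 was above background only on the 2 Akti1/2 arrays of 12 h, so it passed the filter through that group alone, and its level there was at least 1.35-fold higher than in control cells at 12 h. Those lower were Slc7a8, another light chain partner of Slc3a2, at -1.35 (SE 0.22, adjusted p = 0.000607), and the taurine transporter Slc6a6 at -1.28 (SE 0.24, adjusted p = 0.0018). Each of the 5 kept its sign within both chips, with 2.66 and 2.26 for Slc6a19, 2.49 and 2.39 for Slc6a9, 2.13 and 0.88 for Slc36a1, -1.76 and -0.93 for Slc7a8, and -1.51 and -1.05 for Slc6a6.

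The time courses of these 5 genes differed. Slc6a9 had no control change called and rose by 0.96, 2.08 and 2.14 under Akti1/2 at 2, 6 and 12 h (limma adjusted p = 0.000436, 8.22e-07 and 3.12e-07), with a called rise of 1.12 between 2 and 6 h (adjusted p = 0.000316). Its intensity went from 263 and 231.9 at 0 h to 837.3 and 716.8 at 12 h with Akti1/2, against 239.1 and 241 in control cells at 12 h. Slc6a19 parted from control mainly between 6 and 12 h, from a difference in response of 0.74 (adjusted p = 0.0277) to 2.46. Slc7a8 fell in both arms, by 1.28 at 12 h in control cells and by 2.63 with Akti1/2 on the log2 scale (limma adjusted p = 7.38e-05 and 8.44e-08). The light chains measured above background, Slc7a6 and Slc7a8, were thus both lower at 12 h than at 0 h under Akti1/2, while the heavy chain Slc3a2 was higher. Slc6a6 fell under Akti1/2 only, by 0.94 at 12 h (limma adjusted p = 0.00084), against a control value of 0.34 (adjusted p = 0.161).

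**Figure D5:**
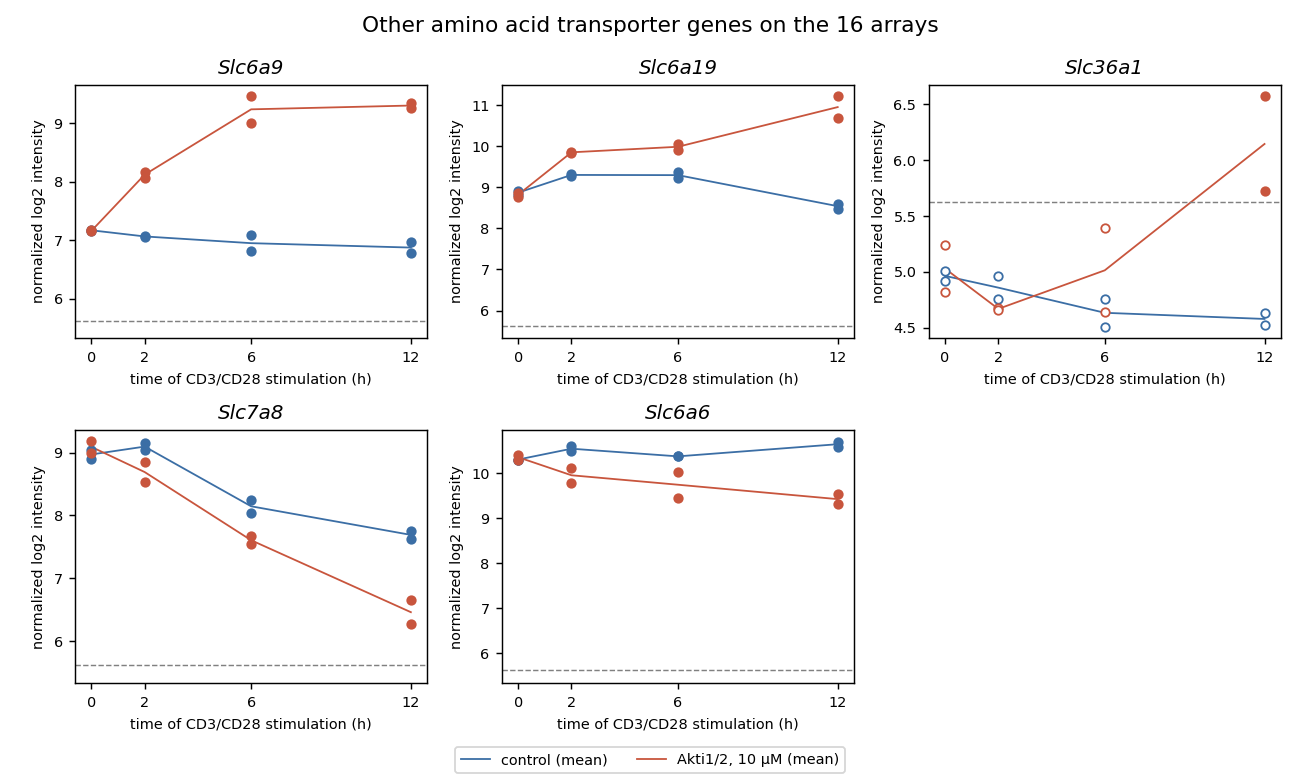
Normalized log2 intensity of the 5 other amino acid transporter genes with a called difference in response at 12 h, by hours of CD3/CD28 stimulation (2 arrays per group as points, lines through the group means; filled points are above background, and the dashed line is the mean over arrays of the lowest normalized signal above background). The y axes differ between panels; Slc6a9, Slc6a19 and Slc36a1 end higher and Slc7a8 and Slc6a6 lower with Akti1/2 than in control cells at 12 h.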

How the data were processed

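RNA of 16 D10 samples was hybridized to Illumina mouse RefSeq chips. The authors deposited bead intensity values, 1 per gene and array on a linear scale, without normalization or background subtraction, for 18138 genes, with 832 control entries that include the 798 negative controls. The scanner settings behind this summary are not given in the sources used here. Each gene has 1 entry, so different transcripts of one gene were not separated.

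From these intensities, the 7395 genes that at least 2 arrays detected (p under 0.01) were kept, and neqc in limma 3.58.1 under R 4.3.3 corrected the background on the negative controls (offset 16), quantile-normalized the arrays and took log2. All 8 groups were fitted in 1 model without a replicate or chip term (lmFit, contrasts.fit and eBayes, 8 residual and 4.26 prior degrees of freedom), with 17 comparisons, each adjusted by Benjamini-Hochberg over all genes tested and called at 0.05. The study itself ranked genes by another score. Arrays carry no read depth, so precision is limited by their number. The alternatives were each array left out, each chip alone, a block for replicate number or chip, fitting just the groups of a comparison, no background correction, arrays scaled to a common mean, no filter, and a filter that asks for detection on all arrays. Simulated arrays with known changes were used to test these steps.

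The transporter genes and all gene lists were chosen with earlier results of these data known. Genes were named by rule: all 10 transporters, from each other list at most 8 genes called in the difference in response at 12 h, taken by size, and for each tested transporter the 3 genes with the highest Pearson's r over the 16 arrays. Some of these nearest genes are not reported here. Promoter windows came from RefSeq (GRCm38.p6), matched by symbol, and figures were drawn with matplotlib 3.10.9 under Python 3.11.15.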

Additional observations from a re-analysis of the deposited data

Results flagged for a closer look

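The difference in response, which tests the change from 0 h with Akti1/2 against the change without it, was called by limma with Benjamini-Hochberg adjustment for 3 transporter genes. For Slc1a4 it was 2.58 at 2 h, 2.47 at 6 h and 2.52 at 12 h on the log2 scale, higher with Akti1/2. For Slc38a2 it was 0.97, 1.04 and 1.28 at the same times, higher with Akti1/2. For Slc3a2 it was 1.53 at 2 h. With 2 arrays per group, no group was large enough for a check of single arrays that stand apart.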

How the results depend on the processing

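No called value changed sign under any alternative; some uncalled values did and stayed uncalled. The count of transporter genes called moved in several settings. With only genes above background on all arrays, which keeps Slc7a6 and Slc38a2 alone of the 6 genes, the count was 1 in place of 0 for control cells at 2 h against 0 h, 0 in place of 1 at 6 h and 1 in place of 2 at 12 h. Under the same filter it was 1, 1 and 2 in place of 3, 3 and 5 for Akti1/2 at 2, 6 and 12 h against 0 h, 1 at each time in place of 3, 2 and 4 between the arms, and 1 at each time in place of 3, 2 and 2 for the difference in response. Without background correction it was 1, 0 and 1 for control cells at 2, 6 and 12 h against 0 h, and 3 in place of 4 between the arms at 12 h, where it was also 3 without the filter. Scaled to the same mean it was 1 for control cells at 2 h against 0 h and 1 for Akti1/2 at 6 against 2 h, in place of 0, and 3 in place of 2 between the arms at 6 h. Without the filter, and in a fit of only the groups compared, it was 0 in place of 1 for Akti1/2 at 12 against 6 h. The latter fit also gave 2 in place of 3 for Akti1/2 at 2 h (without Slc38a2) and at 6 h (without Slc3a2) against 0 h, and, with Slc7a6 gained, 5 in place of 4 between the arms and 3 in place of 2 for the difference in response at 12 h. The cause of these moves was not tested, other than the loss of 4 genes to the filter.

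With 1 array left out in turn, the count was 0 to 1 for control cells at 2 h and at 6 h and 0 to 2 at 12 h against 0 h, and 0 to 1 at 6 against 2 h. It was 2 to 3, 2 to 4 and 3 to 5 for Akti1/2 at 2, 6 and 12 h against 0 h, 0 to 1 at 6 against 2 h and 0 to 1 at 12 against 6 h. Between the arms it was 3 to 3, 2 to 3 and 2 to 5 at 2, 6 and 12 h, and for the difference in response 1 to 3, 2 to 3 and 2 to 3. The array left alone in its group was taken to have the spread of the other groups.

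The sources used here do not say what arrays with the same replicate number share. The correlation of same-numbered deviations had a median of 0.017 over 28 pairs of groups, with 7 over 0.1. For arrays of the same chip the median was 0.027, with 8 over 0.1, so a low median cannot show that nothing is shared. Replicate number and chip number are the same in every group but control cells at 12 h. With the replicate block the count was 1 in place of 0 for control cells at 2 h against 0 h and was unchanged in the other 16 comparisons. With the chip block, Slc3a2 was gained in 3 comparisons: the count was 3 in place of 2 for control cells at 12 h against 0 h, between the arms at 6 h and for the difference in response at 12 h. Over all genes, the calls of the difference in response at 2, 6 and 12 h were 635, 1456 and 2410 with the chip block. They were 600, 1428 and 2384 with the replicate block, beside 622, 1445 and 2400 without a block.

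Scaling to the same mean moved the share of calls that were higher from 43% to 25.9% for control cells at 2 h against 0 h, from 44% to 30.6% at 6 h, and from 50.5% to 64.7%, from 52.7% to 71.9% and from 50.2% to 60.6% for the difference in response at 2, 6 and 12 h, and from 50.1% to 60.8% between the arms at 6 h. Slc1a4, Slc3a2 and Slc38a1 lie near background on many arrays, where background correction sets the size of a log2 difference.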

Other observations

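The tested enzymes of the response and synthesis list, chosen here after their values were seen, had a higher response with Akti1/2 at 12 h, all called by limma with Benjamini-Hochberg adjustment. Over all genes tested, 16.3% were called higher in this comparison. The enzyme genes Psph, Pycr1, Cth and Cbs of that list were above background on no array and Got1 had no values, so their response is not known. The difference in response on the log2 scale was 1.36 for asparagine synthetase (Asns) and 1.31 for Aldh18a1, which starts proline synthesis from glutamate. It was 0.58 for Phgdh and 0.57 for Psat1, which lead from glycolysis to serine, and 0.91 for Shmt2 and 0.65 for Mthfd2, which pass the carbon of serine to folate in mitochondria. For Psat1 the change from 0 to 12 h was -0.45 in control cells (limma adjusted p = 0.0116) and 0.12 with Akti1/2 (adjusted p = 0.429). Under Akti1/2, 17 of the 18 tested genes of the list were called higher at 12 h than at 0 h, Psat1 being the exception. The transcription factor gene Atf4 itself stood at 0.98 and Sesn2 at 1.75.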
